A study of Caenorhabditis elegans with 12 samples.

Results

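The genes for FMRFamide-like peptides, which carry the prefix flp-, were described in N2 larvae of C. elegans exposed to ascarosides for 3 h. Every row of the N2 table of normalized counts whose symbol starts with flp- was taken, which gave 31 of 46726 genes. Of these, 30 reached an average of 5 normalized counts across the 6 libraries and were among the 14965 genes tested. The remaining gene, flp-23, had 2 reads in control library 5 and 0 in the other 5 libraries, so that its level lay under the 3 reads taken as the detection floor of a library and no change could be given.

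FMRFamide-like peptides are short neuropeptides that end in an amidated arginine and phenylalanine. A flp gene encodes a precursor protein that is cut in dense core vesicles by proprotein convertases, trimmed by carboxypeptidases and amidated, and the peptides are then released from neurons and act on G protein-coupled receptors. In C. elegans the family is known for its part in locomotion, feeding, sleep, fat storage and the response to gases and pheromones, and for broad use in worms that enter the dauer stage.

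All libraries came from whole N2 larvae, the wild-type Bristol strain with no transgene or deletion, grown at 20 ºC on HB101 bacteria and split into 6 cultures at 6 h after hatching. Of these, 3 received a mixture of the pheromones ascr#8, ascr#3 and ascr#2 dissolved in ethanol (treated libraries 1, 2 and 3) and 3 received ethanol alone (control libraries 4, 5 and 6). The labels give a total of 5 µM ascarosides, while the paper's methods give a lower concentration. The cultures came from a single population, so the spread between libraries is that of cultures handled in parallel, and the libraries of daf-22 worms are not analysed here. In RNA of whole larvae, a change in the number of cells that express a gene and a change in RNA per cell cannot be told apart.

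The libraries held between 11133417 and 19116807 reads on genes, of which 13047 to 23217 fell on flp genes. The values are normalized counts, the reads of a gene after scaling each library by its size factor. Control library 4 stood apart in its effect on the test: without it 783 genes in all were higher and 657 lower, against 309 and 218 with all 6 libraries. Neuronal transcripts were detected: none of 13 pan-neuronal markers and none of 11 genes that mark transmitter classes was at 0. The averages of the pan-neuronal markers over the 6 libraries ran from 232 (rgef-1) to 3128 (snb-1) normalized counts. Those of the transmitter genes ran from 34.2 (tbh-1) to 1175 (unc-25), in part below the median of 191 over all genes tested. Changes are given as log2 fold changes from limma on log2(normalized count + 1), treated minus control, with Benjamini-Hochberg adjusted p-values over all 14965 genes, and rose is used for an adjusted p under 0.05. An exact permutation test of a single gene between 3 and 3 cultures cannot give a two-sided p under 0.1, so the calls rest on the spread that limma shares across genes.

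After 3 h with ascarosides 6 flp genes rose and 0 fell. These were flp-33, flp-3, flp-15, flp-7, flp-12 and flp-9, and they were between 1.41-fold (flp-9) and 2.46-fold (flp-33) higher. Over all genes tested 2.06% were higher and 1.46% lower at this threshold, and 2.72% were higher among genes averaging 50 or more normalized counts, a minimum that all 30 tested flp genes passed. When the variance was not allowed to follow expression, 0 flp genes and 0 genes in all were higher at the adjusted threshold, and 12 flp genes were higher at an unadjusted p under 0.05, where the share over all genes at that setting was 6.67%. In place of limma, edgeR called 6 and DESeq2 called 9. With one library left out the number was 2 without treated library 1 or 2, 3 without treated library 3, 9 without control library 4, and 4 without control library 5 or 6. Only flp-3 and flp-33 passed in all 6 of these fits.

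Over all 30 tested members, the 6 that rose included, the log2 fold change was above 0 in 25 genes and below 0 in 5, with a median of 0.27, where the median over all genes tested was 0.002. At an unadjusted p under 0.05, 14 flp genes were higher and 0 lower, against 8.05% higher and 7.13% lower over all genes tested. In 16 of the 30 genes the 3 treated values all lay above the 3 control values and in 0 all below, where the shares over all genes were 9.78% and 9.53%. Of the 24 members that did not pass the test, 19 had a log2 fold change above 0, 8 an unadjusted p under 0.05 and 10 treated values above all control values, with a median log2 fold change of 0.22. The members were better covered than the average gene, with a median of 382 normalized counts over the 6 libraries against 191 for all genes tested, which bears on how small a change can pass the test.

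**Figure D1:**
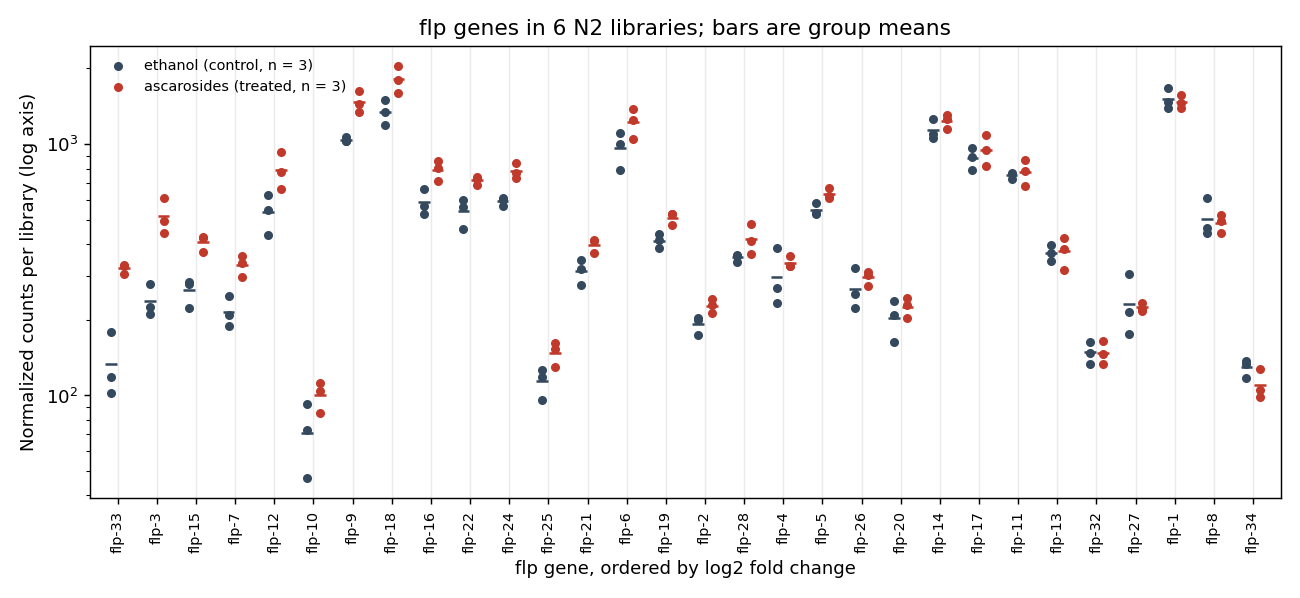
Normalized counts of the 30 tested flp genes (log axis) in each of the 3 control and 3 treated libraries, ordered from the largest rise (flp-33) on the left to flp-34 on the right. Points are single libraries and bars are group means, and in 16 genes the treated points lie all above the control points.

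The sum over all 31 genes was 19565, 17497 and 17638 normalized counts in treated libraries 1, 2 and 3 and 15065, 13910 and 15716 in control libraries 4, 5 and 6. The treated sums lay above every control sum, and the means were 18234 ± 1156 and 14897 ± 915 (SD, n = 3), a ratio of 1.22. Within the groups some libraries were high or low for many members at once. Treated library 1 held the highest treated value of 18 of the 30 genes and treated library 2 the lowest of 19, and control library 5 held the lowest control value of 16. The median SD of the members on the log2 scale was 0.14 in treated and 0.17 in control libraries, against 0.15 and 0.24 over all genes tested. The sets were not matched for level, with median levels of 382 for the flp genes and 191 normalized counts for all genes tested.

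The largest change in the family was that of flp-33 (WBGene00011586). It had 326, 304 and 330 normalized counts in treated libraries 1, 2 and 3 and 118, 102 and 179 in control libraries 4, 5 and 6. The lowest treated value was well above the highest control value, and control library 6 stood above the other controls. The means were 320 ± 13.9 and 133 ± 40.6 (SD, n = 3), and the log2 fold change was 1.30 (SE 0.185, 95% interval 0.91 to 1.69, adjusted p = 5.52e-04). In the WBcel235 annotation an exon of ntr-1, a receptor gene on the opposite strand, overlaps flp-33. The kit named in the methods is not described as keeping strand, so reads of the pair could be mixed. The counts assigned to ntr-1 were between 9.13 and 17.7 normalized counts in all libraries, with overlapping groups, and the part of such reads in the change of flp-33 was not tested. The adjusted p of flp-33 ranged from 8.01e-08 to 0.11 over the 16 alternatives, the highest being that without the trend.

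flp-3 (WBGene00001446) encodes peptides known to drive the attraction of males to the pheromone ascr#8, one of the components of the cocktail. It had 611, 445 and 497 normalized counts in treated libraries 1, 2 and 3 and 278, 225 and 212 in control libraries 4, 5 and 6, so that every treated value lay above every control value. The means were 518 ± 85.0 and 238 ± 34.9 (SD, n = 3), and the log2 fold change was 1.11 (SE 0.151, 95% interval 0.80 to 1.43, adjusted p = 3.76e-04). Its adjusted p over the alternatives ranged from 1.89e-08 to 0.10, the highest being that without the trend.

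The rise of flp-3 was set beside that of its neighbours. In the annotation flp-2, flp-3 and flp-28 all lie opposite the gene W07E11.1, with no exon overlapping. W07E11.1 had 1971 to 2929 normalized counts in controls and 2087 to 2220 in treated libraries, with overlapping groups and a log2 fold change of -0.09. For flp-2 and flp-28 the log2 fold changes were 0.24 and 0.24 (adjusted p = 0.483 and 0.441), with 95% intervals of -0.07 to 0.56 and -0.05 to 0.52. Both had treated values above the control values, but by a small margin that did not pass the test. Transcripts of npr-10, a receptor known to bind FLP-3 peptides, stood at 34.2 to 43.0 normalized counts in treated and 39.4 to 50.6 in control libraries, which overlap (log2 fold change -0.27, adjusted p = 0.702). Another receptor known to bind FLP-3 peptides, frpr-16, which was not in the list of 14 receptor genes, stood at 44.7 to 66.5 in treated and 30.9 to 49.3 in control libraries, which also overlap (log2 fold change 0.36, adjusted p = 0.605).

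flp-7 (WBGene00001450) encodes peptides that are known to be released from the ASI sensory neurons and to promote fat loss through the receptor NPR-22 in the intestine. It had 295, 357 and 335 normalized counts in treated libraries 1, 2 and 3 and 249, 190 and 208 in control libraries 4, 5 and 6. The groups did not overlap, and the log2 fold change was 0.61 (standard error 0.149, 95% interval 0.30 to 0.93, adjusted p = 0.0279). The adjusted p was above 0.05 without treated library 1 (0.0650), 2 (0.213) or 3 (0.123) and without control library 5 (0.0572) or 6 (0.0884). The receptor gene npr-22 had 90.2 to 116 normalized counts in treated and 74.6 to 125 in control libraries, with a log2 fold change of 0.02 (adjusted p = 0.978).

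flp-15 (WBGene00001458) encodes ligands of the receptor NPR-3. It had 421, 373 and 426 normalized counts in treated libraries 1, 2 and 3 and 223, 278 and 283 in control libraries 4, 5 and 6. The gap between the groups was wide compared with the spread within them, with a log2 fold change of 0.64 (standard error 0.14, 95% interval 0.35 to 0.94, adjusted p = 0.0136). The adjusted p was 0.101, 0.0546 and 0.0878 without treated library 1, 2 or 3. The transcripts of npr-3 had overlapping groups (82.7 to 108.2 treated and 52.2 to 123 control normalized counts).

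flp-12 (WBGene00001455), which is expressed in the SMB head motor neurons, had 933, 661 and 772 normalized counts in treated libraries 1, 2 and 3 and 547, 435 and 626 in control libraries 4, 5 and 6. The lowest treated value, in library 2, was close to the highest control value, in library 6. Its log2 fold change was 0.56 (standard error 0.149, 95% interval 0.24 to 0.87), and its adjusted p of 0.0482 was the weakest of the 6 genes. It was 0.0522 with a pseudocount of 0.5, 0.0669 with quantile normalization, 0.0528 with upper-quartile scaling and 0.33, 0.0687, 0.149 and 0.118 without treated library 1, 2 or 3 or control library 5.

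flp-9 (WBGene00001452) had the highest level per kilobase of exon among the 6 genes. It had 1624, 1449 and 1340 normalized counts in treated libraries 1, 2 and 3 and 1028, 1027 and 1070 in control libraries 4, 5 and 6. The controls lay close together (1042 ± 24.3, SD, n = 3) and the treated libraries were all above them (1471 ± 143, SD, n = 3). The log2 fold change was 0.49 (standard error 0.109, 95% interval 0.26 to 0.72, adjusted p = 0.0143), with adjusted p-values of 0.15, 0.0973 and 0.0520 without treated library 1, treated library 2 or control library 6.

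**Figure D2:**
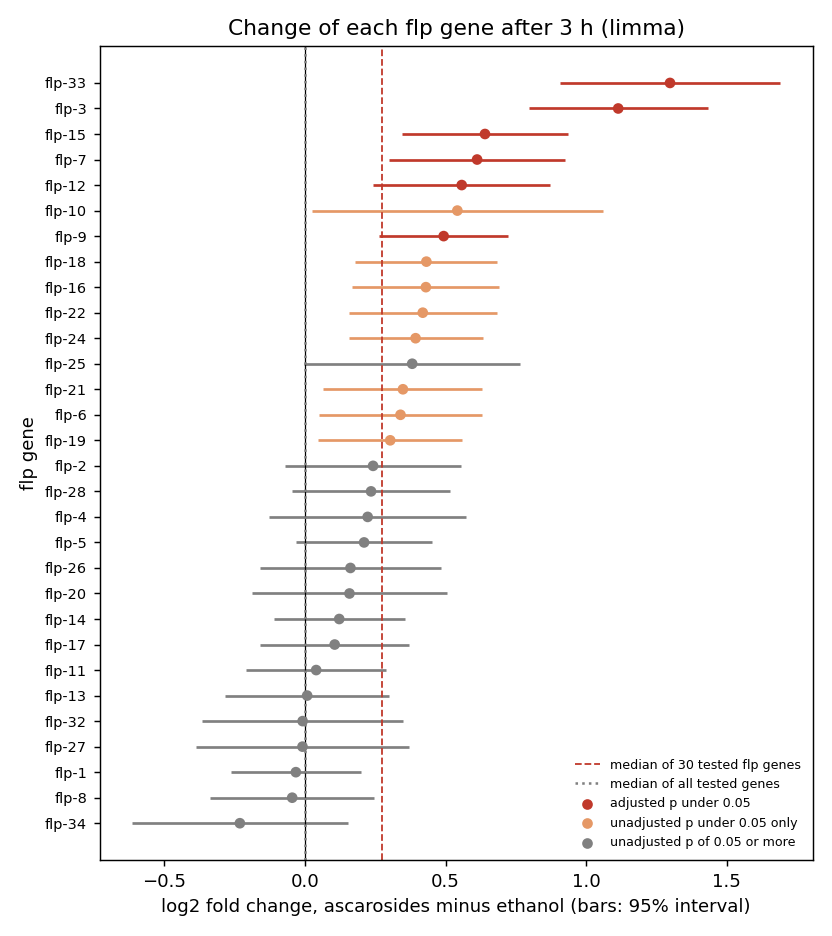
Log2 fold change (treated minus control) of the 30 tested flp genes with its 95% interval from limma, coloured by whether the adjusted or the unadjusted p is under 0.05. The intervals of 14 genes lie wholly above 0 and none lies wholly below it, with a median of 0.27 (dashed) against 0.002 over all genes tested (dotted, at the zero line).

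A further 8 flp genes had an unadjusted p under 0.05 and adjusted p-values between 0.0575 and 0.303, and were not called. Of these flp-18 (WBGene00001461), whose peptides act on the receptors NPR-1, NPR-4 and NPR-5 and are known to affect foraging, fat storage and dauer formation, came closest. It had 2037, 1805 and 1602 normalized counts in treated libraries 1, 2 and 3 and 1501, 1195 and 1337 in control libraries 4, 5 and 6, which do not overlap. Its log2 fold change was 0.43 (standard error 0.120, 95% interval 0.18 to 0.68, adjusted p = 0.0575), and its adjusted p fell under 0.05 without a filter on low values (0.0391), with DESeq2 (0.0278) and without control library 4 (0.00312). The transcripts of its receptors stood at log2 fold changes of 0.003 for npr-4, -0.09 for npr-5 and -0.02 for npr-1.

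Ligands of related receptors were read beside it. flp-21, a ligand of NPR-1 known from the control of aggregation, had 415, 411 and 369 normalized counts in treated libraries and 345, 320 and 276 in controls. Its groups did not overlap but its log2 fold change of 0.35 did not pass the test (adjusted p = 0.201). flp-34, a ligand of NPR-11, had 127, 98.9 and 106 normalized counts in treated libraries and 138, 133 and 118 in controls, and with -0.23 (95% interval -0.61 to 0.15, adjusted p = 0.606) it had the lowest log2 fold change of the family. Its treated and control values overlapped. The differences between these members were not tested.

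Among the members tied to sleep and arousal, flp-24, whose peptides act in the sleep that follows stress and come from the ALA neuron, had 839, 764 and 733 normalized counts in treated libraries and 602, 565 and 608 in controls. The groups were separate, and the log2 fold change was 0.39 (SE 0.113, adjusted p = 0.0686). The adjusted p was 0.0406 with DESeq2 and 0.0255 without control library 4. By contrast flp-13, which ALA also uses for this form of sleep, had 317, 383 and 424 normalized counts in treated libraries and 398, 344 and 370 in controls. It lay at the same level in both groups, with a log2 fold change of 0.01 (95% interval -0.28 to 0.30). flp-11, the gene of the sleep neuron RIS, was also level, at 868, 681 and 782 normalized counts in treated libraries and 729, 758 and 769 in controls (log2 fold change 0.04, 95% interval -0.21 to 0.29). An exon of tmem-135 overlaps flp-11 on the opposite strand, and tmem-135 had a log2 fold change of 0.37 (adjusted p = 0.157).

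flp-10 and flp-17, which encode ligands of the receptor EGL-6 known from the inhibition of egg laying, stood at 104.2 and 1209 normalized counts per kb in the controls. flp-10 was the least abundant tested member, with 112, 85.5 and 104.3 normalized counts in treated libraries and 73.1, 92.8 and 47.04 in controls, which overlap and rest on 42 to 133 reads per library. Its log2 fold change was 0.54 with a wide 95% interval of 0.02 to 1.06 (adjusted p = 0.303). flp-17, a gene of the gas-sensing BAG neurons, had 1086, 944 and 821 normalized counts in treated libraries and 963, 788 and 890 in controls, with a log2 fold change of 0.11 (adjusted p = 0.754). Another BAG gene, flp-19, had 528, 476 and 528 normalized counts in treated libraries, all above the 437, 387 and 417 of the controls, and a log2 fold change of 0.30 (adjusted p = 0.222). An exon of abl-1 overlaps flp-19 on the opposite strand, and abl-1 had a log2 fold change of 0.05.

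The other 3 members at an unadjusted p under 0.05 were flp-16, flp-22 and flp-6. flp-16 had 857, 712 and 801 normalized counts in treated libraries and 568, 529 and 664 in controls (log2 fold change 0.43, adjusted p = 0.0702, and 0.0468 with DESeq2 and 0.0381 without control library 4). flp-22 had 729, 739 and 686 normalized counts in treated libraries and 458, 560 and 601 in controls (log2 fold change 0.42, adjusted p = 0.0816). In both genes the lowest treated value was above the highest control value. flp-6, known for a role in lifespan that depends on temperature, had 1379, 1242 and 1044 normalized counts in treated libraries and 1004, 790 and 1112 in controls, and its groups overlapped (log2 fold change 0.34, adjusted p = 0.227). An exon of romo-1 overlaps flp-16 on the opposite strand, with a log2 fold change of 0.13 for romo-1.

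For the 16 tested members with an unadjusted p of 0.05 or more, log2 fold changes lay between -0.23 and 0.38 and adjusted p-values between 0.335 and 0.988. In 4 of the 16 (9.78% over all genes tested, whatever their p) the treated values lay above all control values, namely flp-25, flp-2, flp-28 and flp-5. Of these flp-25 had 153, 129 and 162 normalized counts with and 95.7, 127 and 118.7 without ascarosides, and flp-5 had 672, 608 and 623 with and 528, 533 and 584 without. Those at a log2 fold change within 0.05 of 0 were flp-11, flp-13, flp-32, flp-27, flp-1 and flp-8. Among them flp-1, which acts from the AVK interneurons on locomotion, had 1573, 1397 and 1454 normalized counts with and 1677, 1468 and 1388 without ascarosides. The 95% interval of flp-1 was -0.26 to 0.20, and its difference from the 6 genes that rose was not tested. For flp-4, flp-26, flp-20 (a gene of the touch receptor neurons), flp-14 and flp-17 the log2 fold changes lay between 0.11 and 0.22, and flp-34, described above, was the lowest at -0.23.

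**Figure D3:**
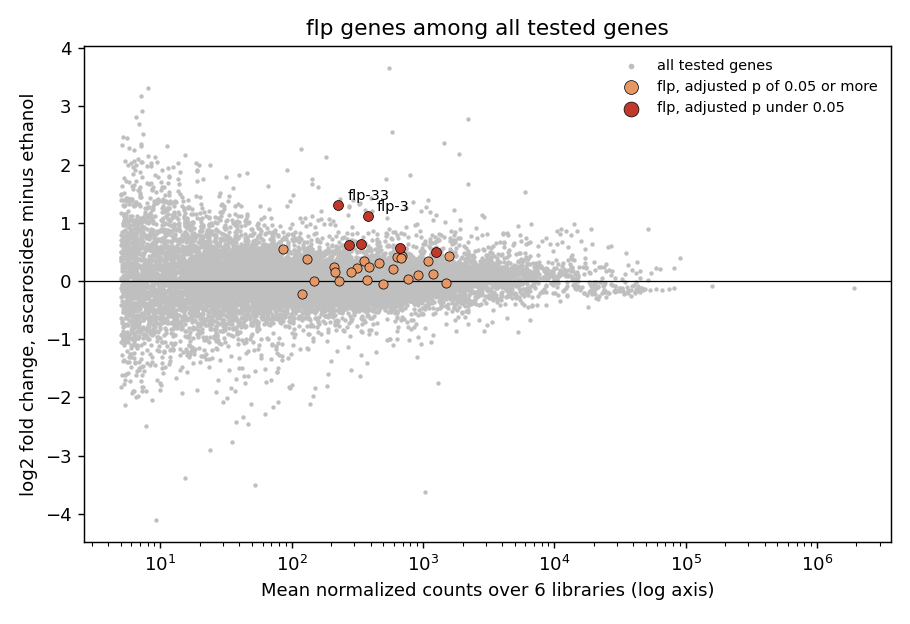
Log2 fold change against mean normalized counts over the 6 libraries (log axis) for all 14965 genes tested (grey) and the 30 tested flp genes (coloured). The flp genes span means from 85.8 to 1580 normalized counts, and flp-33 and flp-3 stand highest among them.

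Levels within the family were compared per kilobase of exon, with lengths from the WBcel235 annotation. In the control libraries flp-14 had 2382 ± 216 normalized counts per kb (SD, n = 3), flp-1 2199 ± 217, flp-9 1646 ± 38.4, flp-18 1382 ± 157 and flp-24 1327 ± 52.4. At the other end were flp-34 with 181 ± 14.7, flp-25 with 177 ± 25.1 and flp-10 with 104.2 ± 33.7. Neighbours in the order mostly could not be told apart, since in 25 of 29 adjacent pairs the ranges of the 3 control libraries overlapped. In the treated libraries flp-9 had 2117 to 2565 normalized counts per kb and flp-1 2034 to 2289, so that these genes overlapped there, while in the controls flp-9 (1622 to 1690) lay below flp-1 (2020 to 2440). The 6 genes that rose lay at control levels from 272 ± 39.98 (flp-3) to 1646 ± 38.4 (flp-9) normalized counts per kb. Of these flp-3, flp-33 (284 ± 86.3) and flp-7 (286 ± 40.1) stood near the low end, with only flp-34, flp-25 and flp-10 lower in mean. Between them and flp-9 lay flp-12 (529 ± 94.8) and flp-15 (584 ± 74.4).

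By position, 13 of the 30 tested flp genes lie on the X chromosome (43.3%), where 14.8% of all genes tested lie. The X-linked members had a median log2 fold change of 0.24, with 3 that rose (flp-3, flp-7 and flp-12), and the 17 others had one of 0.35, also with 3. The share of all tested genes that were higher at the adjusted threshold was 2.06%, and 2.12% for those on the X chromosome. Over all genes tested the medians were 0.02 on the X chromosome and -0.002 elsewhere. The median of the X-linked members was the lower of the pair, and the difference was not tested.

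Genes listed for peptide processing, which include the chaperone gene sbt-1 beside enzymes, were examined next. Whether each of them acts on FLP precursors was not tested. Of 11 processing genes 1 rose, kpc-1, and 0 fell, where 2.06% of all genes tested were higher and 1.46% lower. The median log2 fold change of the 11 was 0.18. kpc-1, a proprotein convertase of the kex2 and furin type, had 1559, 1549 and 1402 normalized counts in treated libraries and 1192, 1109 and 1038 in controls (log2 fold change 0.43, adjusted p = 0.0305, and 0.195, 0.201, 0.0713 and 0.155 without treated library 1, 2 or 3 or control library 6, and 0.219 without the trend). egl-3, the convertase that cuts most neuropeptide precursors, had 7979, 8223 and 7827 normalized counts in treated libraries and 8157, 5096 and 6492 in controls. Control library 4 was as high as the treated libraries, and the log2 fold change of 0.31 had an adjusted p of 0.305. Without that library it was 0.48 (adjusted p = 0.00296), and without control library 5, the lowest, it was 0.14 (adjusted p = 0.663). The carboxypeptidase gene egl-21 showed the same arrangement, with 5462, 5617 and 5491 against 5712, 4199 and 4803 normalized counts and a log2 fold change of 0.18 (adjusted p = 0.517), which was 0.30 without control library 4 (adjusted p = 0.0423) and 0.08 without control library 5 (adjusted p = 0.816). sbt-1, a chaperone of the convertase EGL-3, had 3416, 3158 and 2988 against 2848, 2300 and 2891 normalized counts (log2 fold change 0.26, adjusted p = 0.293).

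Of 12 genes for the making and release of dense core vesicles none passed the test, with a median log2 fold change of 0.12. All 12 had a log2 fold change above 0, from 0.002 to 0.41. The highest was that of ida-1, a vesicle membrane protein, with 7027, 6955 and 6600 normalized counts in treated libraries and 6413, 4151 and 5177 in controls (adjusted p = 0.127, and 4.76e-04 without control library 4). unc-31, needed for vesicle release, had 781, 640 and 669 against 610, 665 and 553 normalized counts, with overlapping groups and an adjusted p of 0.509. Of 14 receptor genes with a known FLP ligand none passed the test, and their median was -0.01. Their means over the 6 libraries ran from 16.5 (npr-11) to 339 (dmsr-1) normalized counts and in 12 of the 14 lay below the median of all genes tested, with npr-1 at 19.01 to 30.9. The lowest log2 fold change among them was that of frpr-4, a receptor for FLP-13, at -0.84, with 20.2, 17.1 and 28.7 normalized counts in treated libraries and 29.6, 45.8 and 44.8 in controls (adjusted p = 0.219).

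The other peptide families were set beside the flp genes by their counts. Of 56 tested nlp genes (nlp-24 to nlp-34, which hold the antimicrobial peptides, left out) 5 rose and 0 fell, with a median log2 fold change of 0.25 and 48 values above 0. The shares over all genes tested were 2.06% higher and 1.46% lower at the adjusted threshold. At an unadjusted p under 0.05, 20 of the 56 were higher and 0 lower, against 8.05% and 7.13% over all genes tested. In 23 of the 56 all treated values lay above all control values and in 0 all below. Over all genes tested those shares were 9.78% and 9.53%. The 5 that rose were nlp-3, nlp-21, nlp-41, nlp-64 and nlp-71, all with treated values above all control values. Their adjusted p-values lay between 0.0122 (nlp-64) and 0.0498 (nlp-41), and the highest over the alternatives lay between 0.108 (nlp-64) and 0.328 (nlp-71). None of the 5 passed without the trend, without treated library 1 (0.0939 to 0.258) or without treated library 2 (0.0715 to 0.23). Without treated library 3 the test was also missed by nlp-21, nlp-41, nlp-64 and nlp-71 (0.0577 to 0.128), without control library 6 by nlp-3, nlp-21 and nlp-41 (0.0654 to 0.0878), and without control library 5 by nlp-41 (0.0577) and nlp-71 (0.0874, with its log2 fold change at 0.47 in place of 0.76). Of 25 tested insulin-like genes none passed the test, and the median was -0.07, with 12 values above 0. The families were not tested against each other.

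Markers of cell types were read beside these changes. The sum of the 13 pan-neuronal genes lay between 16274 and 17043 normalized counts in treated and between 15392 and 16936 in control libraries, with a median log2 fold change of 0.02 and none past the test. For the 11 genes of transmitter classes the sums were 3030 to 3445 and 2739 to 3512 normalized counts, with a median of 0.07 and none past the test. Markers of other tissues moved in part, where 2.06% of all genes tested were higher and 1.46% lower at the adjusted threshold. Of 6 hypodermal genes 1, the cuticle collagen gene dpy-3, was lower at the adjusted threshold (log2 fold change -0.39, adjusted p = 0.0487, and between 0.125 and 0.293 without treated library 1, 2 or 3 or control library 6). Its adjusted p was also 0.051 with a pseudocount of 0.5, 0.0502 with no filter, 0.0505 with upper-quartile scaling, 0.0609 with robust eBayes, 0.0607 with edgeR and 0.255 without the trend. Before adjustment 5 of the 6 hypodermal genes had a p under 0.05 with lower treated means, where the share over all genes was 7.13%. In 4 of the 6 all treated values lay below all control values, against 9.53% over all genes. The median log2 fold change of the 6 hypodermal genes was -0.34. Their summed level was 8185 to 8931 in treated and 9832 to 11612 in control libraries. Of 6 intestinal genes 1, the esterase gene ges-1, rose (log2 fold change 0.78, adjusted p = 4.20e-04, and 0.0874 without the trend), while their sums overlapped. The 5 body wall muscle genes (123984 to 147370 against 96766 to 144362 normalized counts in sum) and the 5 pharyngeal muscle genes had overlapping sums and none past the test. All 5 body wall muscle genes had a log2 fold change above 0, with a median of 0.24. In 2 of the 5 (myo-3 and lev-11) the treated values lay above all control values, against 9.78% over all genes. The highest log2 fold change of the 5 was that of the myosin gene myo-3 (0.49, adjusted p = 0.0647, and 0.0362 with DESeq2 and 4.56e-05 without control library 4). Of the 5 pharyngeal muscle genes 4 were above 0, with a median of 0.22. The 5 germ line genes summed to 2115 to 2321 in treated and 1762 to 1965 in control libraries, which do not overlap, with none past the test. None of these markers was at 0, and the part of such shifts in the changes of the flp genes was not tested.

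**Figure D4:**
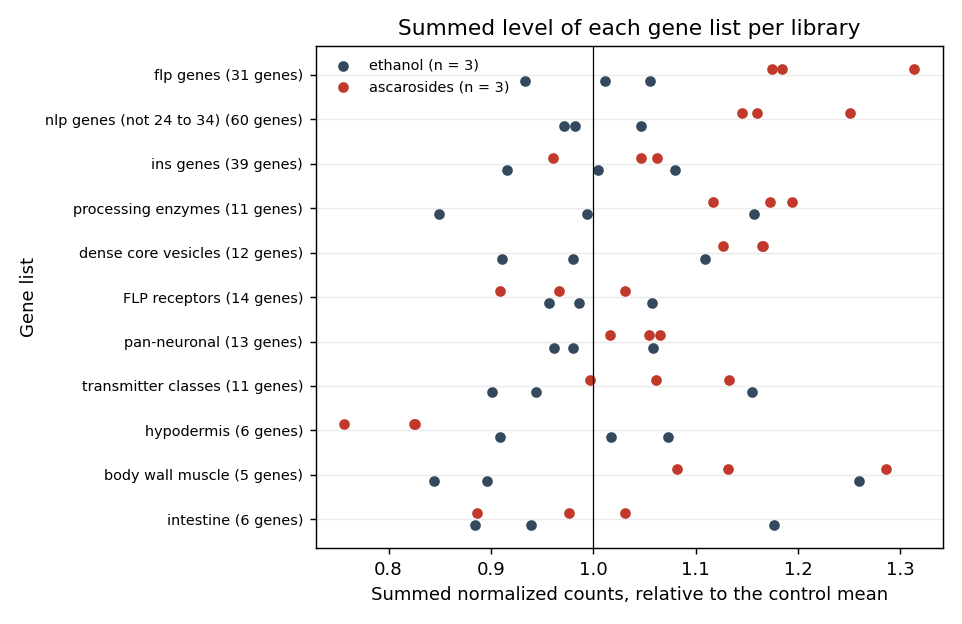
Summed normalized counts of gene lists in each library, divided by the mean of the 3 control libraries. The germ line and pharyngeal muscle lists are not shown, and the germ line sums were also higher in every treated library (2115 to 2321 against 1762 to 1965 normalized counts). The flp genes (1.17 to 1.31 in treated against 0.93 to 1.06 in control libraries), the nlp genes (1.15 to 1.25 against 0.97 to 1.05) and the dense core vesicle genes (1.13 to 1.17 against 0.91 to 1.11) lie apart between groups, as do, in the other direction, the hypodermal genes (0.76 to 0.83 against 0.91 to 1.07), while the pan-neuronal genes (1.02 to 1.06 against 0.96 to 1.06) overlap.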

How the data were processed

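Whole-larva RNA of 6 N2 cultures was sequenced as poly(A)-selected single-end libraries. After alignment with tophat2 and counting with HTSeq-count, the authors deposited normalized signal values, which are read counts scaled by DESeq size factors. The paper names the build WBcel215 and the submitters' processing notes WBcel235, so no coordinates are given. Versions and strand setting are not given in the sources used here. 5 rows of reads not assigned to a gene (33.1% to 41.8% of each column total) were left out, and 0 other value columns were present. Most of the reads left out had multiple alignments (31.6% to 40.4% of each column total). Symbols came from a gene name table for 43623 of 46726 genes and otherwise from the Ensembl WBcel235 annotation, which also gave exon lengths and overlaps.

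Values were taken as log2(normalized count + 1), which understates changes of low genes, and 14965 genes averaging 5 or more were fitted in limma 3.58.1 under R 4.3.3 (lmFit, then eBayes with a variance trend and 12.9 prior degrees of freedom). Tests were two-sided. Every flp gene was named, with full values where the unadjusted p was under 0.05. From the other lists, genes at an adjusted p under 0.05 and egl-3, egl-21, sbt-1, unc-31 and npr-1 were named, and the rest were named after their values were seen. The members and lists were chosen with earlier results of these data known. Reads were recovered by dividing by the value of 1 read, with 100% whole within 0.001 reads, for edgeR 4.0.16 and DESeq2 1.42.0. Further alternatives were pseudocounts of 0.5 and 5, no filter, upper-quartile scaling, quantile normalization, a minimum average of 50, robust eBayes, eBayes with the trend off, and leaving out each library. The scripts were tested on simulated counts. Tables and plots used Python 3.11.15, pandas 2.3.3, scipy 1.17.1 and matplotlib 3.10.9.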

Additional observations from a re-analysis of the deposited data

How the results depend on the processing

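The number of flp genes that fell was 0 in all 16 alternatives, and the median log2 fold change of the tested flp genes stayed between 0.20 and 0.32. The number that rose was 0 with the variance trend turned off, where 0 genes in all were higher and 1 lower, and lay between 5 and 9 under the other alternatives with all libraries. With one replicate left out it ranged from 2 to 9, while over all genes those higher ranged from 129 to 783 and those lower from 88 to 657. Fewer libraries give less power, but the cause of the rise without control library 4 was not tested. Signs of members near 0 changed: flp-32 had log2 fold changes of 0.023 with quantile normalization and 0.0019 with upper-quartile scaling, and flp-27 had 0.0163 and 0.0014. With one library left out, log2 fold changes ranged from -0.0911 to 0.0451 for flp-1, -0.1314 to 0.0975 for flp-8, -0.0433 to 0.1319 for flp-11, -0.0861 to 0.1231 for flp-13, -0.0871 to 0.0639 for flp-32, -0.1879 to 0.2065 for flp-27 and -0.1548 to 0.1809 for npr-1. Over single flp genes and the alternatives that keep all libraries, 9 calls were lost and 4 gained. No paired analysis was possible because the table's column names show a group and no replicate number that the labels use. For flp-23 there were 2 reads in all, too few for a change to be given.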
